A study of Mus musculus with 80 samples.

Results

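The cells described here are 41 single germ cells of the neonatal mouse testis that the deposited count table puts in its cluster I (9 cells) or cluster II (32 cells). They were chosen by that cluster label alone, from 71 single cells in 4 clusters (24 in cluster III and 6 in cluster IV) and from 80 samples in the series. Each cell is a GEO sample of its own, and no animal is named for any of them. All came from male B6;CBA-Tg(Pou5f1-EGFP)2Mnn/J mice at postnatal day 5.5, in which Pou5f1 (Oct4) regulatory sequence drives a green fluorescent protein. They were sorted as positive for that protein and negative for KIT, and captured singly on a Fluidigm C1 machine. No treatment is labelled, and nothing in the labels separates cluster I from cluster II other than the cluster name.

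At this age the germ cells of the testis have resumed division and are becoming spermatogonia, the cells from which sperm production is maintained. A minority are kept as stem cells by the growth factor GDNF, which acts through the receptor pair GFRA1 and RET and raises genes such as Etv5. KIT, a receptor for stem cell factor, marks spermatogonia that have started to differentiate. A cell that divides copies its DNA in S phase, prepares in G2 and separates its chromosomes in M phase, and many G2 and M phase genes are transcribed together late in the cycle.

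Each cell's counts were divided by their total and given as CPM, and a difference is the mean of log2(CPM + 1) over the cluster I cells minus that over the cluster II cells. The values describe 2 sets of cells and no test was made, because cells are not replicates and, with no animal named, each cluster can stand only for 1 biological sample. The clusters were also formed from the expression of these same cells, so a difference between them is a description of the clusters. A gene was called past the fold where the difference was at least 1 (2-fold) in the same direction whichever of the 41 cells was left out. In simulated data the rule also called genes that had been left unchanged, so noise alone can carry genes past it and the counts include such genes. CPM is not adjusted for gene length, so levels are compared within a gene.

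Cluster I cells held fewer kinds of transcript than cluster II cells. Expected counts ran from 788071 to 2742185 in cluster I (median 1444836) and from 530042 to 6802787 in cluster II (median 1601407), so the depths overlapped. Genes with an expected count of at least 1 numbered between 7611 and 10930 (median 9730) in cluster I and between 9371 and 13497 (median 10893.5) in cluster II. With counts rounded to whole numbers and every cell thinned to a total of 530052, cluster I cells held between 8047 and 9788 genes (median 9434) and cluster II cells between 9884 and 11129 (median 10254.5). All 9 cluster I cells then lay below every cluster II cell, while 3 of 9 did so in the expected counts and 2 of 9 in the rounded counts before thinning. Rounding lets estimates under 1 count as detected, and with counts rounded down and thinned to 524638 instead, 8 of 9 lay below. The 100 most abundant genes took a median of 20.0% of a cluster I cell's counts and 17.6% of a cluster II cell's. One cluster I cell, SC4, stood apart with 43.5% of its counts in those genes and the fewest genes of the 41 cells.

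Cluster I cells resembled one another less than they resembled cluster II cells. Across the 15699 genes compared, the median Pearson correlation of log2(CPM + 1) was 0.623 between pairs of cluster I cells, 0.696 between pairs of cluster II cells and 0.658 between a cell of each. All 9 cluster I cells had a higher median correlation with cluster II cells than with the rest of their own cluster. None of the 32 cluster II cells was closer to cluster I. At the thinned depth the medians were 0.610 within cluster I, 0.681 within cluster II and 0.644 between them. Cluster I cells correlated with cluster III cells at a median of 0.641 and with cluster IV cells at 0.608. These correlations run across genes that are not independent replicates, and they share the number of genes detected per cell.

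**Figure D1:**
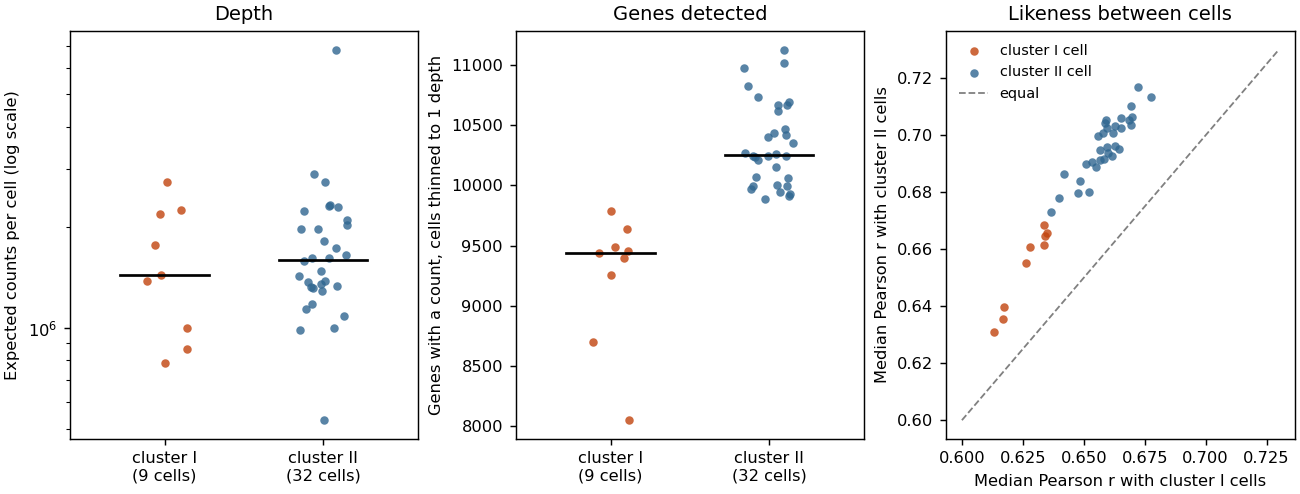
Expected counts per cell (left, log axis), genes with a count after thinning to 1 depth (centre) and the median Pearson correlation of each cell with the cells of cluster I against that with the cells of cluster II (right). Each point is a cell and the bars are medians; the depths overlap, all 9 cluster I cells lie below the cluster II cells in genes detected, and all 41 cells lie above the line of equal correlation.

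The cells of both clusters carried transcripts of germ cells, and the 4 genes that mark the population lay within the fold of each other. Ddx4, the germ cell RNA helicase, was counted in 9 of 9 and 32 of 32 cells, between 118 and 918 CPM (median 456) in cluster I and between 183 and 1249 CPM (median 564) in cluster II. Its difference was -0.56. Gfra1, the GDNF co-receptor, lay between 0 and 328 CPM (median 137) in cluster I and between 0 and 359 CPM (median 64.4) in cluster II. It had a count in 8 of 9 cells (88.9%, exact Clopper-Pearson 95% interval 51.8% to 99.7%) and in 29 of 32 (90.6%, 74.98% to 98.02%), with a difference of 0.02. Etv5, a transcription factor that responds to GDNF, lay between 29.4 and 757 CPM (median 203) against 22.7 and 1327 CPM (median 421), a difference of -0.86. Mki67, a gene of cycling cells, lay between 26.99 and 810 CPM (median 271) against 53.6 and 1211 CPM (median 447), a difference of -0.50, and was counted in all 41 cells. For each of the 4 the clusters overlapped, and intervals over cells cover only the error of counting cells. Although the cells were sorted as KIT negative, Kit transcripts were counted in 6 of 9 and 16 of 32 cells, with medians of 1.70 and 0.674 CPM and a difference of -0.06.

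Markers of other testis cells were partly at 0 and partly counted in both clusters. Of the Sertoli cell list 7 genes were compared and 0 passed the fold. Amh, Cldn11 and Fshr were at 0 in every cell, while Wt1 was counted in 0 of 9 and 7 of 32 cells, up to 226 CPM in cluster II (-1.11), and Sox9 in 9 of 9 and 30 of 32 cells with medians of 6.39 and 5.74 CPM. Tjp1 and Ctsl, counted in at least 8 of 9 and in 32 of 32 cells, had the highest medians of the list. Its summed level ranged from 20.9 to 803 CPM in cluster I and from 62.01 to 669 CPM in cluster II. Of the Leydig list 2 of 10 genes could be compared, none past the fold, and 6 were at 0 in every cell, including the steroid enzymes Cyp11a1 and Cyp17a1 (summed level up to 34.98 and 123 CPM). Star, the cholesterol carrier of steroid synthesis, was counted in 7 of 9 and 29 of 32 cells, with medians of 4.77 and 5.44 CPM and a highest level of 121 CPM in cluster II. Of the macrophage and leukocyte list 8 were compared with 0 past the fold, and C1qa, C1qb, C1qc and Emr1 were at 0 in every cell (summed level up to 54.6 and 164 CPM). Among 5 peritubular and stromal genes 1 (20%, where the whole table had 10.6%) was past the fold, Col1a1, a chain of type I collagen, at -1.34. It was counted in 2 of 9 and 12 of 32 cells, up to 1.39 and 137 CPM, while Col3a1 was at 0 throughout. Smoc2 had the highest median of that list in both clusters (121 and 110 CPM). The list summed to between 11.6 and 313 CPM in cluster I and between 4.04 and 504 CPM in cluster II. Some cluster II cells held Wt1 and Col1a1 together: SC31 (200 and 137 CPM), SC58 (57.9 and 122 CPM), SC2 (17.8 and 37.4 CPM) and SC27 (1.24 and 71.3 CPM). Cell SC14, with the most Wt1 (226 CPM), had Col1a1 at 0. Ddx4 was at 556 CPM in SC31, 666 in SC58, 1012 in SC2, 751 in SC27 and 487 in SC14. Of the endothelial and erythroid list 4 were compared with 0 past the fold, the globin genes Hba-a1 and Hbb-b1 were at 0, and the sum reached 79.0 and 131 CPM.

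Most genes lay lower in cluster I. Of 15699 genes compared, 10832 had a difference below 0 and the median difference was -0.26. Past the fold, 1662 genes (10.6%) were higher in cluster II and 96 (0.612%) were higher in cluster I, so cluster I held 5.46% of the genes past the fold. Relative to the median of all compared genes the numbers were 1061 and 217, and cluster I held 16.98%. Over all cells, without leaving any out, 2725 genes (17.4%) were at least 2-fold higher in cluster II and 320 (2.04%) in cluster I. In 0 of the genes past the fold were the clusters free of overlap between cells.

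The genes higher in cluster II were mostly genes of middle abundance that fewer cluster I cells held. Of genes with a mean level from 10 to 100 CPM, 18.97% were higher in cluster II, against 4.11% from 1 to 10 CPM, 8.62% from 100 to 1000 CPM and 0% above that. The pseudocount of 1 CPM shrinks differences of low genes, so the small shares under 10 CPM are partly set by the rule. In the band from 10 to 100 CPM the median gene was counted in 77.8% of cluster I cells and 90.6% of cluster II cells. The 1662 genes had a median difference of -1.69 and were counted in a median of 55.6% and 84.4% of cells. Of them, 103 were counted in every cell and 77 in no cluster I cell. Over only the cells that held a count, which 1439 of the genes allowed, the median difference was -1.14. The 96 genes higher in cluster I had a median difference of 1.604 and were counted in a median of 88.9% and 71.9% of cells. Over cells that held a count their median difference was 1.21. Both sets were chosen by their difference in these same cells, so the sign of what remains over such cells is partly set by that choice. It does not separate level from detection. The smaller number of genes per cluster I cell moved with all of these counts, and its part in them was not tested.

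**Figure D2:**
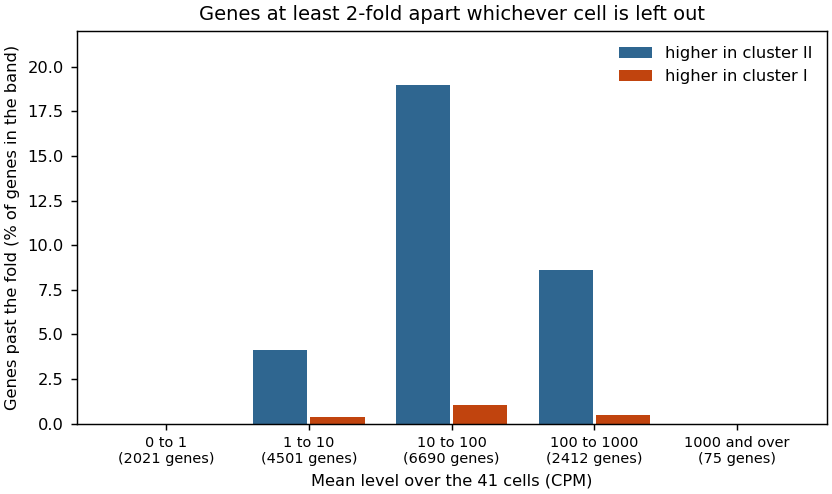
Percent of compared genes at least 2-fold apart whichever cell is left out, by mean level over the 41 cells in CPM, with the number of genes in each band under the axis. Cluster II is the higher one in 18.97% of genes from 10 to 100 CPM and in 0% of those under 1 CPM or from 1000 CPM. The pseudocount of 1 CPM holds down the shares of the lowest bands.

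G2 and M phase genes were the longest list compared and held the most members past the fold, all lower in cluster I. Of 54 compared G2 and M phase genes, 15 were past the fold, all higher in cluster II (27.8%, where the whole table had 10.6%), and the median difference of the list was -0.67. From 10 to 100 CPM 5 of 14 members were past the fold, and from 100 to 1000 CPM 10 of 39, beside 18.97% and 8.62% of all genes at those levels. Without cell SC4 the count was 13. Promoters of such genes often carry CCAAT, the box bound by the factor NF-Y, and TTTGAA, a form of the cell cycle element bound by the DREAM complex. The stretch of 130 bases just before the annotated start is shown for the 4 members with the largest differences, from RefSeq on GRCm38.p6, to let those motifs be read beside the values. Capitals mark CCAAT or its reverse complement ATTGG, and TTTGAA or its reverse complement TTCAAA. The stretches lie at chr2:172370571-172370700 (minus strand) for Aurka, chr2:129297213-129297342 (minus strand) for Ckap2l, chr7:122159305-122159434 (plus strand) for Plk1 and chr2:119618168-119618297 (plus strand) for Nusap1.
Aurka: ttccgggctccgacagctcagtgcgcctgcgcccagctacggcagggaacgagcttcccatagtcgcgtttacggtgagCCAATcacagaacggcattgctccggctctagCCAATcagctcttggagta
Ckap2l: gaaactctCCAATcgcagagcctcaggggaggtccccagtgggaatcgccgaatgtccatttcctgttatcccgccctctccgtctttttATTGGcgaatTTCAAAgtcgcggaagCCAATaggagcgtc
Plk1: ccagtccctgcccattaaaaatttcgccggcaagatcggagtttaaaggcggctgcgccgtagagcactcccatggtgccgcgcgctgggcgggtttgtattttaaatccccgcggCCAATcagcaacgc
Nusap1: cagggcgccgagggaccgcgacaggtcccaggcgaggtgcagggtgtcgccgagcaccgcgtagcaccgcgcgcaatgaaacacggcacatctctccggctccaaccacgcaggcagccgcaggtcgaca

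Aurka, the kinase that matures the spindle poles, was counted in 5 of 9 cluster I cells and 30 of 32 cluster II cells. It lay between 0 and 85.6 CPM (median 0.696) in cluster I and between 0 and 277 CPM (median 42.2) in cluster II, a difference of -2.80 that ranged from -3.32 to -2.52 as single cells were left out. Ckap2l, a spindle protein, was counted in 4 of 9 and 26 of 32 cells, between 0 and 163 CPM (median 0.693) against 0 and 489 CPM (median 98.9), a difference of -2.72. For each gene 3 cluster I cells stood well above the other 6. For Aurka these were SC17 (85.6 CPM), SC23 (52.9 CPM) and SC29 (30.5 CPM), with the rest at or under 1.61 CPM. For Ckap2l they were SC23 (163 CPM), SC53 (87.9 CPM) and SC29 (48.6 CPM), with the rest at or under 3.24 CPM. Those cells lay among the cluster II cells, and the clusters overlapped.

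Plk1, a kinase needed for entry into and passage through mitosis, lay between 0 and 208 CPM (median 1.73) in cluster I and between 0 and 346 CPM (median 36.9) in cluster II, with a difference of -2.33. Its high cluster I cells were SC17 (208 CPM) and SC53 (108 CPM). Nusap1, which bundles spindle microtubules, lay between 0 and 146 CPM (median 13.4) against 0 and 447 CPM (median 61.5), with a difference of -2.25. Genes counted in every or almost every cell were among the 15 as well. Top2a, the topoisomerase that untangles replicated chromosomes, lay between 16.3 and 755 CPM (median 320) in cluster I and between 196 and 1924 CPM (median 628) in cluster II, counted in all 41 cells. Ccnb1, which encodes cyclin B1, lay between 40.3 and 581 CPM (median 153) against 193 and 1867 CPM (median 565), also in all 41 cells. Their differences were -2.002 and -1.62. Cdc2a, the older symbol of the cyclin-dependent kinase gene Cdk1, was at -1.77. The other members past the fold were the kinetochore genes Nuf2 (-2.22), Ndc80 (-1.47) and Bub1b (-1.78), the spindle genes Tacc3 (-2.11) and Kif2c (-1.602), the cytokinesis genes Ect2 (-1.98) and Anln (-1.63), and 6030408C04Rik (G2e3, -1.81).

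Every cluster I cell held most of the 15 genes. Of the 15 genes, cluster I cells held a count for between 11 and 14 (median 13) and cluster II cells for between 13 and 15 (median 15). Over the whole list, 24 of 32 cluster II cells had a mean log2(CPM + 1) above the highest cluster I cell, and 3 of 9 cluster I cells lay below the lowest cluster II cell. Members not past the fold included Cenpf, a kinetochore gene counted in all 41 cells (difference 0.16), the survivin gene Birc5 (-0.18) and Mki67 (-0.50).

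**Figure D3:**
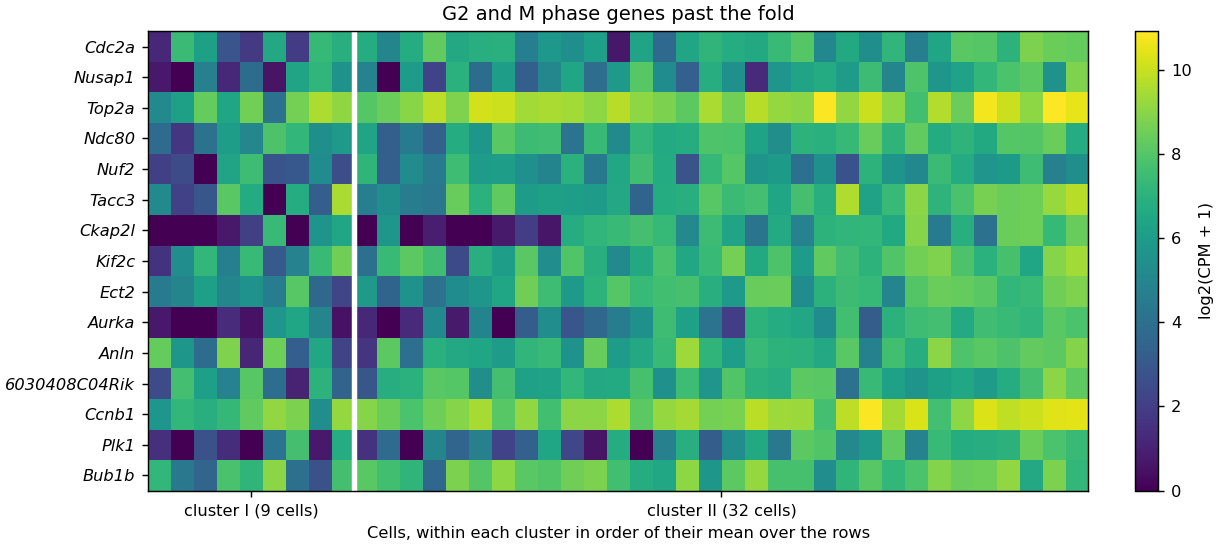
Level as log2(CPM + 1), by colour, of the 15 G2 and M phase genes past the fold (rows) in each cell (columns), with cluster I to the left of the white line. Cells are in the order of their mean over the rows; the clusters overlap, and cluster I cells hold a count for 11 to 14 of the 15 genes.

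The motifs did not single out the members past the fold. In the 250 bases before the start, searched on both strands, CCAAT was found in 37 of the 48 list members with a promoter in the table (77.1%) and in 37.5% of 27025 promoters. It was found in 8 of the 15 past the fold and in 29 of 33 of the others. TTTGAA was found in 20 of 48 members (41.7%) and in 18.3% of all promoters, in 5 of the 15 past the fold and in 15 of 33 of the others. A match is a description of letters, and neither motif overlaps the other.

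Other cell cycle groups had fewer members past the fold. Among 42 S phase genes 2 (4.76%, where the whole table had 10.6%) were higher in cluster II past the fold. They were Cdc45l (Cdc45, needed to start replication forks, -2.08) and the helicase gene Blm (-1.64), and 1 gene was higher in cluster I. That gene was Pola1, the catalytic subunit of the polymerase that primes replication, at between 1.64 and 308 CPM (median 141) in cluster I and between 0 and 406 CPM (median 53.5) in cluster II, a difference of 1.31. At the thinned depth 2 members were higher in cluster II past the fold and 0 in cluster I, so Pola1 no longer passed. With a pseudocount of 10 CPM the numbers were 1 and 0. Pcna, the sliding clamp of replication, was at -0.01, and the list's median was -0.33. Of 16 genes of G1 control and the E2F axis 3 (18.75%) were past the fold, all higher in cluster II, and with a pseudocount of 10 CPM 1 was. The 3 were Foxm1 (-1.97) and Mybl2 (-1.68), transcription factors that drive late cell cycle genes, and the phosphatase gene Cdc25a (-1.96). Of 19 histone genes none was past the fold in either direction.

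Genes linked to leaving the cell cycle were not higher in cluster I. Of 23 such genes 6 (26.1%, where the whole table had 10.6%) were past the fold, all higher in cluster II, with a list median of -0.71. Without cell SC4 the count was 4, and with a pseudocount of 10 CPM it was 0. Rbl2, a pocket protein of the DREAM complex, was at 0 in all 9 cluster I cells and counted in 15 of 32 cluster II cells (46.9%, exact interval 29.1% to 65.3%). A count of 0 in 9 cells allows a share of up to 33.6% by the same interval. Its relative Rbl1 (-1.86), the repressor E2f6 (-1.997), the inhibitor Cdkn1c (-1.89), 1810054G18Rik (Lin37, -1.66) and Ccng2 (-1.32) were the others. The inhibitor genes Cdkn1a (-0.52) and Cdkn1b (0.06) were not past the fold.

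Stem cell genes were mixed. Of 25 self-renewal genes 2 were higher in cluster II (8%) and 1 in cluster I, where the whole table had 10.6% and 0.612%. The list median was -0.16 against -0.26 for all genes. Taf4b, a subunit of a transcription initiation complex, lay between 1.11 and 249 CPM (median 20.9) in cluster I and between 0 and 537 CPM (median 83.9) in cluster II, a difference of -1.82. Bcl6b, a repressor that responds to GDNF, lay between 0 and 206 CPM (median 3.34) against 0 and 602 CPM (median 18.1), at -1.51. Egr2, an early growth response factor, went the other way, between 9.84 and 134 CPM (median 56.9) in cluster I and between 0 and 280 CPM (median 21.8) in cluster II. Its difference was 1.23, counted in 9 of 9 and 24 of 32 cells. At the thinned depth the list had 3 genes higher in cluster II past the fold and 0 in cluster I, so Egr2 no longer passed. With a pseudocount of 10 CPM the numbers were 1 and 0. Ret (0.41), Zbtb16 (-0.51), Id4 (-0.55), Nanos2 (0.48) and Pou5f1 (0.15), well-known genes of this state, were within the fold.

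Of 21 genes downstream of GDNF, FGF and ERK signalling 2 were past the fold, both higher in cluster II (9.52%, near the 10.6% of the table), and with a pseudocount of 10 CPM none was. Spry4, a feedback inhibitor of ERK signalling, lay between 0 and 262 CPM (median 25.7) in cluster I and between 0 and 536 CPM (median 83.8) in cluster II (difference -1.99). Dusp5, a phosphatase of ERK, was at -1.73. Among 17 immediate early genes 3 (17.6%, where the whole table had 10.6%) were higher in cluster II past the fold, Fos (-1.73), Klf6 (-1.56) and Zfp36 (-1.36). Egr2, counted here too, was higher in cluster I. At the thinned depth the numbers were 3 in cluster II and 0 in cluster I, and with a pseudocount of 10 CPM 0 and 0.

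Progenitor and differentiation genes gave little separation. Of 14 progenitor genes 2 (14.3%, where the whole table had 10.6%) were higher in cluster II past the fold. They were Cdh1, the epithelial cadherin (-1.58), and Sohlh1, a germ cell transcription factor (-1.36). At the thinned depth their differences were -1.22 and -1.24, and neither stayed past the fold with every cell left out in turn. Of 16 genes listed under differentiation 1 (6.25%) was past the fold, Rhox10, a homeobox gene of the germ line, at -1.33. Its place on the list does not make it a marker of differentiation. Stra8, a gene induced by retinoic acid, was at 1.03 and Klf4 at 1.14, but neither kept the fold when each cell was left out.

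Among 28 general germ cell genes 3 were past the fold, all higher in cluster II (10.7%, close to the 10.6% of the table), with a list median of -0.55. Tdrd9 (-2.36) and Tdrd7 (-2.32) encode Tudor proteins of the piRNA pathway, and Dnd1 (-2.20) an RNA-binding protein that protects germ cell transcripts. Dnd1 was counted in 7 of 9 cluster I cells, between 0 and 47.2 CPM (median 7.66), and in all 32 cluster II cells, between 2.22 and 183 CPM (median 45.1). Of 12 DNA methylation genes 1 (8.33%) was past the fold, D230004J03Rik (Tet3, an enzyme that oxidises methylated cytosine, -2.44). The methyltransferase genes Dnmt1 (-0.01) and Dnmt3a (0.27) were not.

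**Figure D4:**
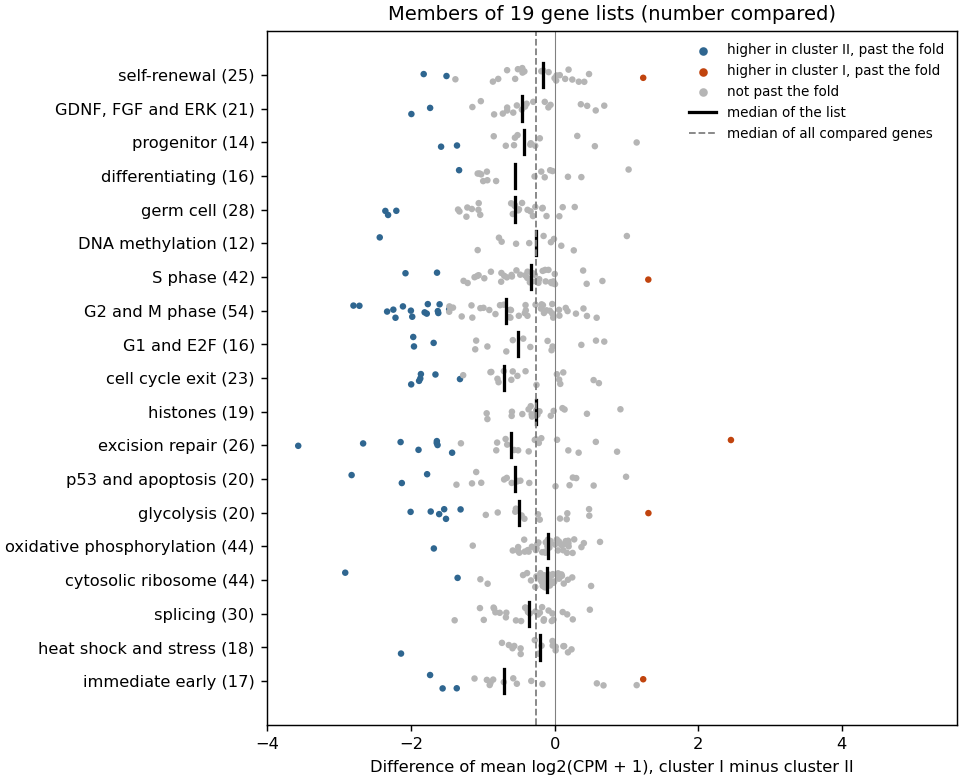
Difference of mean log2(CPM + 1), cluster I minus cluster II, for each member of 19 gene lists, with the number compared in brackets. Blue and orange points passed the fold, black bars are list medians and the dashed line is the median of all genes (-0.26). Of the G2 and M phase genes 15 of 54 (27.8%) are past the fold on the left. The same holds for 8 of 26 of excision repair (30.8%) and 6 of 20 of glycolysis (30%), beside 10.6% of all compared genes.

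Excision repair of DNA held the single gene with the largest difference among the listed genes, Ercc1. Of 26 genes 8 were higher in cluster II and 1 in cluster I past the fold, with a list median of -0.61. From 10 to 100 CPM 6 of 16 members were higher in cluster II, beside 18.97% of all genes at that level. Without cell SC4 the numbers were 6 and 1. Ercc1, a subunit of the nuclease that cuts 5′ of a lesion, was counted in 2 of 9 cluster I cells (22.2%, exact interval 2.81% to 60.01%) and in 32 of 32 cluster II cells (100%, 89.1% to 100%). It lay between 0 and 69.4 CPM (median 0) in cluster I and between 1.602 and 80.3 CPM (median 29.4) in cluster II, a difference of -3.57. Cell SC44 of cluster I held the 69.4 CPM and so lay inside the range of cluster II.

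Ercc5, which encodes the nuclease that cuts 3′ of the lesion, went the opposite way. It lay between 0 and 264 CPM (median 44.5) in cluster I, with a count in 5 of 9 cells, and between 0 and 88.1 CPM (median 0.210) in cluster II, with a count in 13 of 32. Its difference was 2.46. Among the listed subunits of TFIIH, the factor that opens DNA in repair and in transcription, Gtf2h1 (-2.67), Gtf2h2 (-1.64), Gtf2h3 (-1.64), Gtf2h4 (-1.63) and Ercc2 (-1.43) were past the fold and Ercc3 (-0.80) was not. Lig3, a DNA ligase, was at -2.15 and Ercc8, of transcription-coupled repair, at -1.90. Xpa (-0.18) and Ercc4 (-0.28), counted in at most 7 of 32 cells, were not past the fold.

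Glycolysis genes split within the list. Of 20 compared, 6 were higher in cluster II and 1 in cluster I, and all 6 came from the 11 members at 10 to 100 CPM, beside 18.97% of all genes at that level. Relative to the median of all genes 3 were higher in cluster II, and with a pseudocount of 10 CPM 0 were. They were Pgk1 (-2.01), Aldoc (-1.73), the glucose transporter gene Slc2a1 (-1.61), the hexokinase gene Hk2 (-1.54), Tpi1 (-1.51) and Ldha (-1.31). Pgk1, Tpi1 and Ldha have near-identical processed copies in the genome that can share reads, so their values are uncertain. Pdk1, a kinase that holds back entry of pyruvate into mitochondria, lay between 24.2 and 627 CPM (median 301) in cluster I and between 5.26 and 672 CPM (median 87.3) in cluster II, a difference of 1.31 that did not pass the rule without cell SC4. Gapdh was at 0.18, a value with the same uncertainty from processed copies.

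Oxidative phosphorylation and ribosomal protein genes lay near 0. Of 44 oxidative phosphorylation genes 1 (2.27%, where the whole table had 10.6%) was past the fold, Ndufb3 of complex I (-1.68). The list's median was -0.09. Of 44 cytosolic ribosomal protein genes 2 (4.55%) were, Rps4x (-2.92) and Rpl10 (-1.35), with a median of -0.11. Both have near-identical copies and are uncertain. None of 30 splicing genes passed (median -0.36, 26 of 30 below 0). Of 18 heat shock and stress genes 1 (5.56%) did, Hmox1, the haem oxygenase, at -2.14. Of 20 genes of p53 and apoptosis (median -0.56) 3 (15%) were higher in cluster II, among them Trp53 (-2.13) and Sesn2 (-1.78). Trp53, which encodes p53, was counted in all 41 cells, between 3.05 and 176 CPM (median 10.2) in cluster I and between 1.65 and 537 CPM (median 119) in cluster II.

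The 12 named genes with the largest differences in favour of cluster II, Ercc1 of the repair list among them, were genes of several different functions. Sars2, the mitochondrial seryl-tRNA synthetase, was counted in 3 of 9 cluster I cells (33.3%, exact interval 7.49% to 70.1%) and 30 of 32 cluster II cells (93.8%, 79.2% to 99.2%). It lay between 0 and 6.28 CPM (median 0) against 0 and 212 CPM (median 59.2), the largest difference among them at -4.49. No cell carried it, since the difference ranged from -4.76 to -4.40 as cells were left out. Gaa, the lysosomal enzyme that breaks down glycogen, was counted in 1 of 9 and 23 of 32 cells, at most 1.74 CPM in cluster I and at most 275 CPM in cluster II (-3.46).

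Genes of membrane traffic and protein turnover were among the 12. Golga3, a Golgi matrix protein, lay between 0 and 111 CPM (median 0.696) in cluster I and between 0 and 389 CPM (median 77.9) in cluster II (-4.10). Cog1, of the tethering complex that keeps Golgi enzymes in place, was counted in 1 of 9 and 24 of 32 cells (-3.94). The ubiquitin ligase gene Smurf1 (-4.08), Tnfaip1 (-4.07), which encodes a substrate adaptor of ubiquitin ligases, and Alg10b (-3.53), of protein glycosylation in the endoplasmic reticulum, also belonged here. Tnfaip1 was counted in 7 of 9 and 32 of 32 cells, with medians of 2.22 and 122 CPM.

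RNA and nucleotide metabolism made up the rest of the 12 beside Ercc1. Clp1, an RNA kinase of 3′ end and tRNA processing, lay between 0 and 151 CPM (median 1.42) in cluster I and between 2.01 and 338 CPM (median 77.5) in cluster II (-3.79). Gart, an enzyme of purine synthesis, lay between 0 and 349 CPM (median 0.696) against 0 and 674 CPM (median 195), at -3.78. Dus3l, a tRNA-modifying enzyme, was at -3.90 and Crsp7 (Med26), a Mediator subunit, at -3.52.

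The 12 named genes with the largest differences in favour of cluster I were likewise diverse. Evl, an actin regulator, was counted in 7 of 9 cells (77.8%, exact interval 39.99% to 97.2%) and 13 of 32 (40.6%, 23.7% to 59.4%), between 0 and 153 CPM (median 30.4) in cluster I and between 0 and 49.1 CPM (median 0) in cluster II. Its difference was 2.46. Orc1l (Orc1), the largest subunit of the complex that marks origins of replication, was counted in all 41 cells. It lay between 67.4 and 509 CPM (median 206) in cluster I and between 1.03 and 374 CPM (median 55.3) in cluster II, a difference of 2.16. Every cluster I cell lay above the cluster II median for Orc1l.

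Polk, a polymerase that copies past DNA lesions, lay between 2.38 and 305 CPM (median 23.1) in cluster I and between 0 and 79.6 CPM (median 7.26) in cluster II (2.19). Uap1, which makes the sugar donor UDP-GlcNAc, lay between 1.37 and 163 CPM (median 97.7) against 0 and 142 CPM (median 9.17), at 2.17. The others were Ercc5 (above), Ankrd54 (2.42), Afap1l1, an actin-associated adaptor (2.38), the zinc finger gene Sall3 (2.28), the retinoid X receptor gene Rxrb (2.25), Sh3bp4, of receptor endocytosis (2.17), Nf2, the merlin tumour suppressor (2.16), and Rbck1, of the linear ubiquitin ligase (2.15). In each of the 12 genes the cells of the clusters overlapped.

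**Figure D5:**
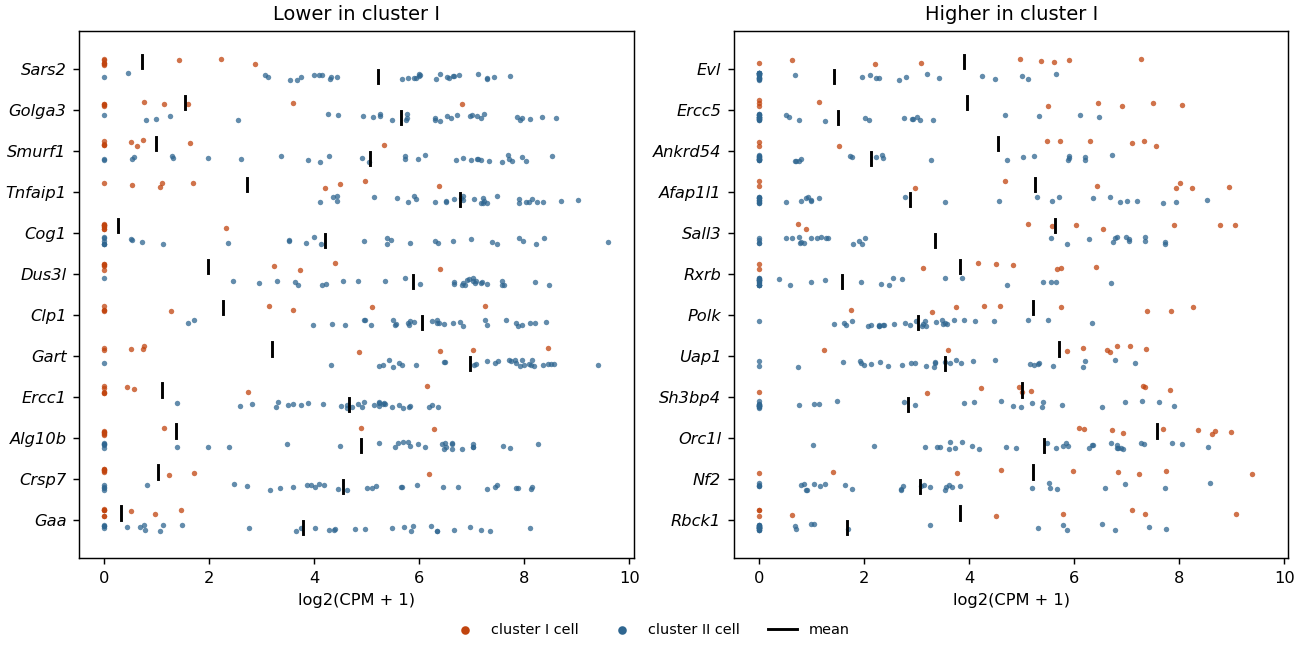
Level as log2(CPM + 1) in each cell for the 12 named genes with the largest difference in each direction; points are cells and black bars cluster means. Sars2 and Gaa have most cluster I cells at or near 0, Orc1l is above 0 in all 41 cells, and for every gene shown the clusters overlap.

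Several protein families, only some of which contain these genes, were then read as a whole. The families were picked after the values were seen, and their counts support nothing. Of 37 aminoacyl-tRNA synthetase genes, which charge tRNAs for cytosolic and mitochondrial translation, 15 were higher in cluster II past the fold and 0 in cluster I, with a median of -1.004. Without cell SC4 the count was 12, relative to the median of all genes it was 9, and with a pseudocount of 10 CPM it was 6. Beside Sars2 these included Yars (-3.41), Cars (-3.18), Tars2 (-2.34) and Dars (-2.27), while Vars (0.09), Mars (-0.03) and Lars2 (0.60) were within the fold. From 10 to 100 CPM 7 of 14 members passed, and from 100 to 1000 CPM 6 of 20, beside 18.97% and 8.62% of all genes at those levels. Of 7 genes of the COG tethering complex 3 (42.9%, where the whole table had 10.6%) passed, Cog1, Cog4 and Cog2. Of 8 exocyst genes 3 (37.5%) passed, Exoc6, Exoc7 and Exoc5. From 10 to 100 CPM 2 of 6 COG members and 3 of 6 exocyst members passed, beside 18.97% of all genes at that level. Of 11 Integrator genes 2 (18.2%) did, Ints10 (-3.23) and Ints3 (-1.595), and of 12 purine synthesis genes 2 (16.7%), Gart and Ppat (-1.16). None of 14 proteasome core genes passed, with a median of -0.18.

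The sorted CD87 positive and CD87 negative libraries (2 each) of the same age and strain gave a separate reading that the clusters did not use. CD87 is the urokinase receptor. Of 12715 genes compared there, the 2 CD87 positive values both lay above the 2 CD87 negative values in 20.4% and below them in 14.5%. Of the genes higher in cluster II, 1627 were compared and 320 (19.7%) were higher and 220 (13.5%) lower. Of the genes higher in cluster I, 90 were compared and 19 (21.1%) were higher and 11 (12.2%) lower. These shares lay near those of all genes in both directions. Spry4 (TPM, length-scaled abundance) was listed at 0.40 and 2.06 in CD87 negative and at 7.02 and 15.9 in CD87 positive libraries. Sars2 was at 20.1 and 17.7 TPM against 31.9 and 44.3 TPM. Ercc1 was at 7.05 and 17.5 TPM against 8.68 and 18.7 TPM. Of the 12 named genes higher in cluster II, Sars2 and Golga3 were higher in both CD87 positive libraries, and Smurf1, Clp1, Crsp7 and Gaa were lower in both. Of the 12 named genes higher in cluster I, Sh3bp4 was higher in both and Orc1l lower in both. The markers Gfra1, Etv5, Ddx4 and Mki67, which lay within the fold between the clusters, were higher in both. Smurf1 was at 18.7 and 18.6 TPM against 15.8 and 9.89 TPM. No test was made, since the smallest p an exact permutation could give for 2 against 2 libraries is 0.333.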

How the data were processed

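The deposited table of the single cells holds expected counts for 27128 gene rows. Trim Galore, Salmon and the mm9 genome are named for it in the submitters' processing notes. The deposited table of the CD87 libraries holds TPM values, for which those notes name Trim Galore, RSEM and mm9. Tool versions, the annotation and the clustering method were not given in the sources used here. The clusters are the deposited table's own. Column names say P6 where the sample titles say P5.5, and cells were joined by their SC number.

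The 22 rows whose names had become dates (at most 0.609% of a cell's counts) were left out. CPM came from each column's total, with a pseudocount of 1 CPM, which understates differences of low genes. Genes with an expected count of at least 1 in at least 5 of the 41 cells were compared. Counts are amplified reads without molecular identifiers. The intervals treat cells as independent draws and cover only the error of counting cells, not differences between animals. Thinning took each cell's rounded counts to the smallest total. Rounding counts estimates above 0.5 as detected. Of the 566 different genes of the gene lists, 526 matched by symbol, 38 by an older symbol of RefSeq (GRCm38.p6) and 2 not at all. The families were matched in the same way and are not in these numbers, and their member Cog5 was not found. CPM under 0.001 is written as 0. TPM was read where at least 1 in at least 2 CD87 libraries.

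The members, lists, tests and rules were chosen with earlier results of these data known. The genes named are the 4 markers and, in each direction, the 12 largest differences among genes counted in at least 50% of the higher cluster's cells, past the fold, with medians in the same direction. Unnamed loci were passed over (3 for cluster II, 1 for cluster I). To these come up to 4 members past the fold of each list, or its 2 largest where none passed. Other list members, chosen after their values were seen, are named as the remaining members past the fold or as well-known genes within it. Promoter sequences and motif matches come from RefSeq on GRCm38.p6 and no coordinates were moved between builds. The difference rule was tested on simulated data, where it recovered planted differences and also called genes left unchanged. Python 3.11.15, numpy 2.4.6, pandas 2.3.3, scipy 1.17.1 and matplotlib 3.10.9 were used. Alternatives were other scalings, thinning, pseudocounts, filters, medians and leaving out each cell. The other 5 libraries of the series were not used here. One gene past the fold is not reported here.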

Additional observations from a re-analysis of the deposited data

Results flagged for a closer look

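Among the 9 cells of cluster I, 125 measures were examined for a cell far from the rest (gap to the nearest cell over the range, above Dixon's 95% critical value), and 16 stood out. Chance puts about 1 in 20 groups past that limit only where values are normally distributed. Many of the measures were log2(CPM + 1) of single genes, several of them without a count in most cluster I cells. That rate does not apply to such genes, so the number of measures that stood out cannot be set against chance. Cell SC4 had 43.5% of its counts in the 100 most abundant genes, the next cell 22.7%. The same cell was lowest in the mean log2(CPM + 1) of the differentiation list (2.45) and of the peritubular and stromal list (0.731), and highest in log2(CPM + 1) of Crsp7 (6.18), Zfp36 (5.35) and Flt1 (4.67). Cell SC12 was lowest in the Sertoli list (1.10) and highest in Smurf1 (5.32). Cell SC44 was highest in Ercc1 (6.14) and Cdkn1c (4.77), and cell SC16 in Pgk1 (5.88) and Cog2 (8.40). Cell SC68 alone held Cog1 (2.32), and cell SC29 was highest in Sesn2 (3.94). Cell SC53 was highest in Exoc6 (6.72), and cell SC23 lowest in Pola1 (1.40). Genes past the fold keep a difference of at least 1 without the cell named here by definition, since the rule leaves out each cell in turn. They need not pass when the whole rule is run again on the remaining cells. Without cell SC4 that gave 1490 genes higher in cluster II in place of 1662.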

How the results depend on the processing

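The counts of genes past the fold, 96 higher in cluster I and 1662 in cluster II, depended most on how low values were treated. They were 20 and 415 with a pseudocount of 10 CPM, and 217 and 1061 relative to the median of all genes. With cluster medians in place of means they were 280 and 2239. They were 144 and 1431 with median-of-ratios size factors, 110 and 1688 at the thinned depth, and 76 and 1405 among genes counted in at least 20 cells. Without the filter on low counts they did not change. Leaving out each cell gave 92 to 126 and 1490 to 1760, with both ends farthest from the reported counts reached without cell SC4 (126 and 1490), an alternative added after the data were seen, as was the one relative to the median. The median difference of all genes (-0.26) was -0.0823 with a pseudocount of 10 CPM, -0.0981 without the filter and -0.0827 with cluster medians. The immediate early list's median (-0.71) was 0 with cluster medians. The cause of these shifts was not tested. Of compared genes, a mean of 65.8% per cluster I cell and 73.2% per cluster II cell reached an expected count of 0.5, and 48.1% and 55.5% a count of 5. With a pseudocount of 10 CPM the G2 and M phase count was 11, that of excision repair 3 and 1, of glycolysis 0 and 1, of cell cycle exit 0, and of tRNA synthetases 6. Of the 78 named genes past the fold, all kept their direction under the alternatives that could be computed for them, except 1 of 78 with cluster medians. With a pseudocount of 10 CPM 52 of 78 kept a difference of at least 1.

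No paired analysis was possible because the cells share no replicate numbers, no animal is named, and no test was made on the CD87 libraries. A gene counted in none of the 9 cluster I cells has an exact upper limit of 33.6% of cells. Genes under 10 CPM were the ones most often without a count.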
